A study of Arabidopsis thaliana with 12 samples.

Results

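The interaction of *jazQ* and *phyB* is the part of the *jazQ phyB* transcript profile that the effects of *jazQ* alone and of *phyB* alone do not add up to. It was measured for each gene as (*jazQ phyB* minus *jazQ*) minus (*phyB* minus WT) on the log2 scale, so that a value of 0 means that loss of phyB changed the transcript by the same factor with and without *jazQ*. All 12 libraries of the series entered this comparison. WT was the Col-0 ecotype of *Arabidopsis thaliana*. In *jazQ*, T-DNA insertions disrupt *JAZ10*, *JAZ9*, *JAZ4*, *JAZ3* and *JAZ1* (alleles *jaz10-1*, *jaz9-4*, *jaz4-1*, *jaz3-4* and *jaz1-2*). The *phyB* line carries the *phyB-9* allele, and *jazQ phyB*, which came from a cross of both, carries all of these mutations. Each genotype had 3 libraries, described as biological replicates, and each library came from about 200 pooled whole seedlings, roots included. Seedlings of all genotypes were 8 d old and had grown in continuous light at 21 °C on solid medium with 0.8% sucrose, with WT and mutants on the same plates. Each genotype is represented by 1 line, so that other loci that segregated in the cross cannot be told apart from the interaction. Of 33602 genes in the table, 20957 had enough counts to be tested.

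JAZ proteins repress MYC and other transcription factors that switch on jasmonate responses, and jasmonate brings about their destruction, so plants that lack several JAZ proteins show jasmonate responses without added hormone. Phytochrome B is the main red light receptor of light-grown plants and removes PIF transcription factors, and its loss gives a shade-type seedling with long stems and less chlorophyll. Both pathways meet through DELLA proteins, which bind JAZ as well as PIF proteins.

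The libraries held 12750074 to 26347184 counts. Chloroplast-encoded transcripts took 0.273 to 0.988% of them, with the highest share in WT replicate 3, and ribosomal RNA took 0.688 to 2.12%. *PHYB* measured 83.6, 79.4, 55.2 and 53.4 CPM (counts scaled to library size and by TMM factors) in WT, *jazQ*, *phyB* and *jazQ phyB*, and *JAZ1* measured 52.3, 5.48, 31.4 and 6.46 CPM. *JAZ3* (14.8, 648, 11.5 and 529 CPM) and *JAZ10* (3.64, 258, 3.3 and 206 CPM) were higher in both *jazQ* genotypes, and reads over an insertion line do not show that a full transcript is made. None of the 6 mutated genes passed the interaction test, with the largest value for *JAZ1*, 0.97 ± 0.26 (SE, adjusted p = 0.030). Summed over 20 root markers the libraries gave 303 to 337 CPM in WT, 307 to 315 CPM in *jazQ*, 310 to 327 CPM in *phyB* and 368 to 404 CPM in *jazQ phyB*, and 2 root markers (*PHO1* and *SKOR*) had a called positive interaction. Over 15 shoot markers the sums were 25137 to 28716, 27137 to 29836, 16422 to 17135 and 18409 to 24011 CPM in the same order, with *CA1* and *TRY* called positive. No marker of either list was at 0 in all 12 libraries, and the part of such tissue shares in the values that follow was not tested. In whole seedlings, fewer cells of a type and less RNA per cell cannot be told apart.

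The interaction passed an adjusted p of 0.01 for 756 genes, 3.61% of those tested, of which 399 (1.90%) were positive and 357 (1.70%) negative. At an unadjusted p of 0.05 there were 5075 genes, and the median over all genes tested was 0.0028. With limma on the deposited TPM, log2(TPM + 1), the split between directions turned, with 259 positive and 371 negative calls. Without 1 library the count was between 359 and 755. It fell by more than 1.5 times without WT replicate 2 (454), *phyB* replicate 1 (423), *phyB* replicate 2 (360), *phyB* replicate 3 (469) or *jazQ phyB* replicate 1 (359). No called gene changed sign in these 12 fits, and 310 genes (146 positive and 164 negative) were called in all of them. Genes named below are among these 310 unless the number of fits without a call is given.

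For most of the called genes, loss of phyB was itself called in the WT background or in the *jazQ* background but not in both. A missing call does not show that an effect was absent. Against WT, *phyB* changed 2465 genes (11.8%), against *jazQ*, *jazQ phyB* changed 1422 (6.79%), and these comparisons share no library. Of the 399 genes with a positive interaction, 278 were called for *phyB* against WT alone, 57 for *jazQ phyB* against *jazQ* alone, 19 in both with opposite directions, 22 in both with the same direction and 23 in neither. Among the 357 with a negative interaction these numbers were 125, 149, 46, 6 and 31. The median positive gene stood at -0.65 in *phyB* against WT and at 0.18 in *jazQ phyB* against *jazQ*, and the median negative gene at 0.33 and -0.40. These splits describe genes chosen by the interaction itself and carry no test.

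Few of the same genes were called for *jazQ* in the presence of phyB. The *jazQ* mutations changed 323 genes (1.54%) against WT and 2467 (11.8%) against *phyB*. Of the 756 genes, 628 were called for *jazQ phyB* against *phyB* alone (304 positive and 324 negative), 36 for *jazQ* against WT alone, 13 in both with opposite directions, 5 in both with the same direction and 74 in neither. Sorted by the pairwise calls, *phyB* stood apart on the low side in 199 genes and on the high side in 115. For *jazQ phyB* these numbers were 114 and 25. *jazQ phyB* against WT had 2047 calls (9.77%). WT stood apart in 17 genes (15 high and 2 low), *jazQ* in 5 (4 high and 1 low), and 281 genes fell in no such pattern. A genotype counted as apart as follows. For *jazQ phyB*, it was called in 1 direction against each other genotype and neither single mutant was called against WT. For WT, each mutant was called against it in 1 direction and *jazQ phyB* was called against neither single mutant. For *phyB* or *jazQ*, the single mutant was called against WT and, on the same side, against *jazQ phyB*, and neither the other single mutant nor *jazQ phyB* was called against WT. In this last case the other genotypes need not lie together. In *COL2*, with *phyB* apart on the low side, *jazQ phyB* was called above *jazQ* (0.50).

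**Figure D1:**
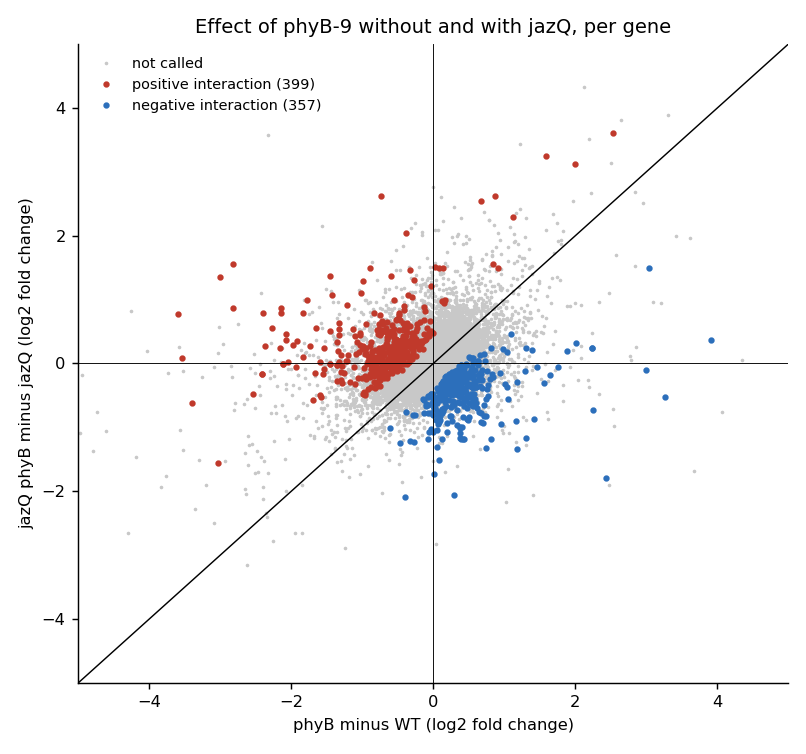
Effect of *phyB* against WT (horizontal axis, log2 fold change) and of *jazQ phyB* against *jazQ* (vertical axis, log2 fold change) for each gene tested, which share no library; the diagonal is an interaction of 0. Red points (399) are called positive, blue points (357) called negative, and 24 genes, 6 of them called, lie outside the axes at 5.

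The median size was 0.81 for positive and -0.71 for negative genes, and 141 positive and 92 negative genes lay beyond 1 on the log2 scale. Because a difference of logarithms need not have the sign of a difference of levels, the same contrast was computed on the linear CPM scale. The sign was kept by 398 of 399 positive and all 357 negative genes, with *UF3GT* as the exception (-0.014 CPM on the linear scale against 2.79 on the log2 scale). Called genes were spread over the 5 nuclear chromosomes, at 3.15 to 4.03% of the genes tested on each. Of 740 called nuclear genes, 248 lay within 5 tested loci of another, and 147 of these had a neighbour with the same direction. The numbers for as many genes placed at random were not computed, so these counts do not show that calls cluster. There were 18 runs of 3 or more, and a segregating segment in the cross cannot be told apart from the interaction for such runs.

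In the circadian clock, called genes of the morning were higher and most called genes of the evening lower in *jazQ phyB* than additivity gives. The plant clock is a loop in which the MYB-type factors LHY and CCA1 peak near dawn and repress evening genes, PRR proteins follow each other through the day and repress *LHY* and *CCA1*, and the evening complex of ELF4, ELF3 and LUX acts at dusk. Of 32 clock genes tested, 20 were called (11 positive and 9 negative, 62.5% against 3.61% of all genes), and the median of all 32 was 0.18. In the fits without 1 library 15 to 19 were called, and the same 15 in each. All 11 positive genes had their lowest mean in *phyB*, and all 9 negative genes their lowest mean in *jazQ phyB*, with the highest mean in *phyB* for 8 of the 9. Choosing genes by the sign of the interaction favours such an order, which is not particular to the clock. *phyB* was also lowest in 7 of 7 positive photorespiration genes, but in 0 of 3 positive *SAUR* genes. *jazQ phyB* was lowest in 10 of 10 negative PTAC genes of the chloroplast, but in 0 of 2 negative jasmonate turnover genes.

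*LHY* shared the lowest adjusted p of all genes with AT3G55920 and AT5G35935, described at the end. It measured 283, 323 and 250.2 CPM in WT, 241, 227 and 243 in *jazQ* and 108, 113 and 118 in *phyB*, while *jazQ phyB* gave 374, 359.8 and 369. The *phyB* libraries were the lowest and the *jazQ phyB* libraries the highest, with no overlap with any other genotype, and the interaction was 1.97 ± 0.11 (SE, adjusted p = 5.0e-07). Loss of phyB thus lowered *LHY* against WT (-1.34) and raised it against *jazQ* (0.63). Its partner *CCA1* measured 119, 144 and 118 CPM in WT, 119, 126 and 100.03 in *jazQ* and 55.6, 60.6 and 63.7 in *phyB*, while *jazQ phyB* gave 148, 147 and 140.3. Again the *phyB* libraries lay below all others, while WT and *jazQ* overlapped, and the interaction was 1.41 ± 0.13 (SE, adjusted p = 2.6e-05).

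*RVE8*, a related MYB factor that activates evening genes, measured 58.1, 56.4 and 51.6 CPM in WT, 56.6, 54.6 and 50.7 in *jazQ* and 26.8, 27.4 and 26.7 in *phyB*, while *jazQ phyB* gave 68, 59.5 and 70.1, with WT and *jazQ* overlapping and *phyB* below them. Its interaction was 1.32 ± 0.10 (SE, adjusted p = 9.3e-06). *LNK2* (0.96 ± 0.11 SE, adjusted p = 2.3e-04) and *LNK3* (1.3 ± 0.16 SE, adjusted p = 3.1e-04), coactivators that work with RVE8, and *RVE1* (1.24 ± 0.16 SE, adjusted p = 4.1e-04), a MYB factor that links the clock to auxin, moved the same way. *LNK4* was also called (0.93), not called in 8 of the 12 fits without 1 library (adjusted p of up to 0.020 without *phyB* replicate 2). *COL2*, a CONSTANS-like gene with a morning peak, measured 66.7, 74.2 and 61.9 CPM in WT, 52.1, 54.3 and 40.5 in *jazQ* and 26.6, 24.3 and 23.3 in *phyB*, while *jazQ phyB* gave 74, 73.4 and 60.8. The *phyB* libraries were lowest and those of *jazQ* next, while WT and *jazQ phyB* overlapped above both, and the interaction was 1.95 ± 0.16 (SE, adjusted p = 1.2e-05). *COL1* gave 1.01 ± 0.10 (SE, adjusted p = 6.5e-05). The DOF-type repressors of flowering *CDF2* (0.89, not called in 7 of the 12 fits without 1 library, adjusted p of up to 0.021 without *jazQ phyB* replicate 1) and *CDF3* (0.84, not called in 10 of the 12 fits without 1 library, adjusted p of up to 0.024 without *phyB* replicate 2) completed the positive group.

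The called evening and late-day genes had the opposite direction. *PRR5*, a repressor of *LHY* and *CCA1*, measured 38.3, 29.9 and 24.3 CPM in WT, 23.4, 25.1 and 25.7 in *jazQ* and 46.2, 42.6 and 43.5 in *phyB*, while *jazQ phyB* gave 14.8, 15 and 11.7. The *phyB* libraries were the highest and the *jazQ phyB* libraries the lowest, while WT and *jazQ* overlapped, and the interaction was -1.34 ± 0.19 (SE, adjusted p = 8.8e-04). *TOC1*, the evening member of the PRR family, measured 102, 99.9 and 106 CPM in WT, 107, 100.3 and 111 in *jazQ* and 122, 136 and 141 in *phyB*, while *jazQ phyB* gave 69.3, 65.9 and 71, with the same order and -1.0 ± 0.092 (SE, adjusted p = 2.6e-05). *FKF1*, a blue light receptor that removes CDF proteins, measured 16.7, 14.9 and 14.2 CPM in WT, 11.2, 13.7 and 11 in *jazQ* and 25.8, 26.6 and 21.2 in *phyB*, while *jazQ phyB* gave 5.89, 7.58 and 5.56. Its levels in *phyB* were above every other library and those in *jazQ phyB* below, with -1.59 ± 0.19 (SE, adjusted p = 2.2e-04).

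*GRP7*, an RNA-binding protein driven by the clock, was the most abundant of these genes and measured 1299.8, 1158 and 1071 CPM in WT, 992, 984 and 1162 in *jazQ* and 1888, 1995 and 1896 in *phyB*, while *jazQ phyB* gave 675, 579 and 745. The interaction was -1.36 ± 0.14 (SE, adjusted p = 6.4e-05), with *phyB* above and *jazQ phyB* below all other libraries. *PRR3* (-1.57 ± 0.18 SE, adjusted p = 1.8e-04), which stabilizes TOC1, the evening complex gene *ELF4* (-1.14 ± 0.17 SE, adjusted p = 0.0013) and *BOA* (-1.41 ± 0.20 SE, adjusted p = 9.6e-04), a relative of *LUX*, were called as well. *LUX* (-0.69, not called in 9 of the 12 fits without 1 library, adjusted p of up to 0.024 without *phyB* replicate 2) and *PRR7* (-0.55, not called in 7 of the 12 fits without 1 library, adjusted p of up to 0.017 without *phyB* replicate 2) were called with smaller values. *COR27*, a cold- and light-regulated partner of the clock, is outside the list. It measured 13.7, 14.2 and 12.9 CPM in WT, 14.6, 17.1 and 16.5 in *jazQ* and 28.1, 31.6 and 32.1 in *phyB*, while *jazQ phyB* gave 4.3, 7.93 and 7.19. Its interaction was -2.51 ± 0.21 (SE, adjusted p = 1.7e-05). *JMJD5*, a histone demethylase of the evening phase, measured 23.4, 17.6 and 19.5 CPM in WT, 21.3, 18.7 and 20.3 in *jazQ* and 38.2, 40.4 and 39.8 in *phyB*, while *jazQ phyB* gave 8.74, 11.3 and 11.4. Its interaction was -1.91 ± 0.16 (SE, adjusted p = 1.3e-05). In both genes *phyB* was apart on the high side and *jazQ phyB* on the low side.

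Other clock genes did not pass the test. *GI* (-0.40, adjusted p = 0.067), *PRR9* (0.80, adjusted p = 0.20), *ELF3* (-0.27, adjusted p = 0.25) and *ZTL* (0.074, adjusted p = 0.68) were among them. The seedlings stood in continuous light, and the time of harvest of each genotype is not given in the sources used here. A difference in sampling time between genotypes was not tested.

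**Figure D2:**
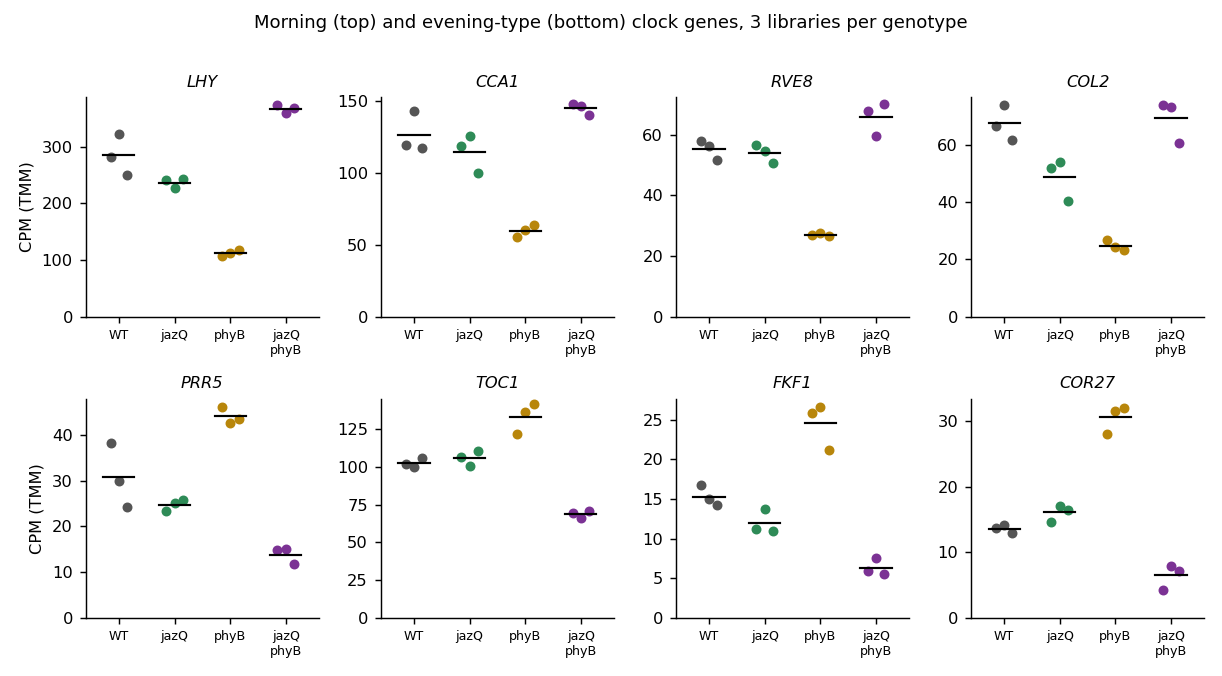
TMM-scaled CPM (vertical axes, from 0) of 4 morning genes (top) and 4 evening-type genes (bottom) in the 3 libraries (points) and their mean (line) of each genotype. In the top row *phyB* is lowest, in the bottom row *phyB* is highest and *jazQ phyB* lowest.

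Many evening genes carry the evening element, AAATATCT, the sequence to which LHY, CCA1 and RVE proteins bind. Promoter windows from 250 bases before to 50 bases after the annotated start were taken from RefSeq (TAIR10.1 assembly), which gave a window for 20766 of the 20957 genes, and 4 motifs were searched on both strands. The evening element stood in 28.2% of the 355 windows of negative genes, in 4.96% of the 383 windows of positive genes and in 5.88% of all windows. The G-box CACGTG, to which PIF and MYC proteins bind, stood in 12.4%, 14.1% and 8.66%. The PIF-binding box CACATG stood in 12.1%, 16.7% and 12.9%, and the DRE core GCCGAC of cold-regulated genes in 3.10%, 2.87% and 3.67%. None of these motifs is contained in another. Of the 1221 tested genes with an evening element, 8.19% were called negative, against 1.3% of those without one. Their median interaction was -0.081, against 0.0059 without the element, and 61.2% lay below 0, against 49.1%. These shares are descriptions, and a match is not a binding site.

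**Figure D3:**
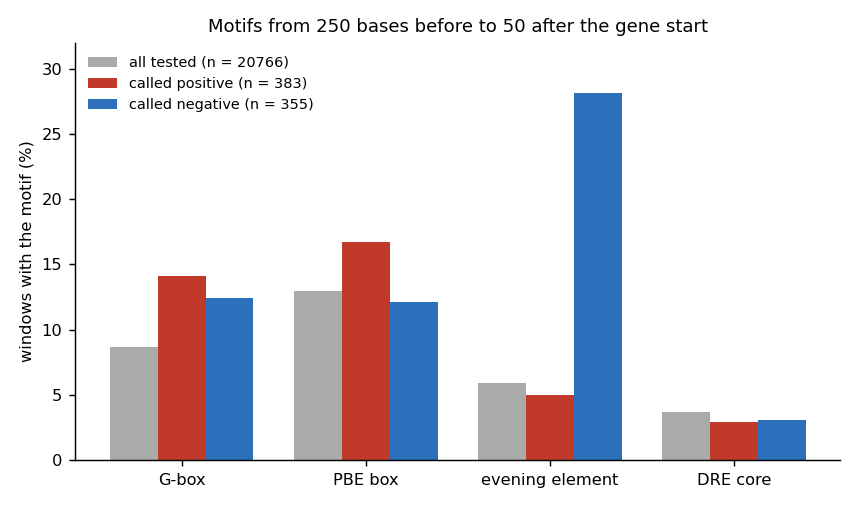
Share of promoter windows (vertical axis, percent) that hold each of 4 motifs on either strand, for all genes tested (20766), genes called positive (383) and genes called negative (355). The evening element stands in 28.2% of negative windows and in 5.88% of all.

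Among the 9 negative clock genes 7 had the element in this window and among the 11 positive ones 1, *COL2*. The stretches upstream of 2 negative genes with more than 1 copy are shown because the copies stand close to the start, with each evening element (AAATATCT or, on the other strand, AGATATTT) in capitals and the strand of the gene. *GRP7* is at chr2:9266558-9266807 (- strand) and *LUX* at chr3:17182792-17183041 (+ strand), each stretch ending at the base before the annotated start.
GRP7: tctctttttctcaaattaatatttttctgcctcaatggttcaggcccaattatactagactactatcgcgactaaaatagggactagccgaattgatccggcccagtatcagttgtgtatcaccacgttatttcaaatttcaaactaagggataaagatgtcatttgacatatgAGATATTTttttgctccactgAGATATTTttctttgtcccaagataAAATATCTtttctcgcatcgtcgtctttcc
LUX: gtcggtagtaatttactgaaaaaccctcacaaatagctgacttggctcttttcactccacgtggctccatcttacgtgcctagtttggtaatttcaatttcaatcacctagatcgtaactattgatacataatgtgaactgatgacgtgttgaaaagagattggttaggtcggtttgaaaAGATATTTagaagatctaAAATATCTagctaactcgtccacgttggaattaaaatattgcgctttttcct

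Shorter stretches around the copy nearest to the start are shown for other genes of both groups, with each element again in capitals. Each holds 1 copy except that of *ELF4*, which holds 2. The stretches are at chr5:24674801-24674830 (+) in *TOC1*, chr5:8358715-8358744 (-) in *PRR5*, chr2:16735175-16735204 (-) in *ELF4*, chr5:24003834-24003863 (+) in *BOA* and chr1:25508442-25508471 (+) in *FKF1*. For the positive exception *COL2* the stretch is at chr3:489637-489666 (-), and for the starch genes *PWD* and *ISA3*, described next, at chr5:9261435-9261464 (+) and chr4:5783859-5783888 (+).
TOC1: taaatatcatgAGATATTTtctccaagatg
PRR5: agattttttctAGATATTTtcttttctcca
ELF4: tAAATATCTttAGATATTTctacaataaga
BOA: atgcgggtaaaAGATATTTtagattatcta
FKF1: ttgagtaggctAGATATTTtctcggaatat
COL2: ataagttaccaAAATATCTtcttgttacta
PWD: tcatatttagaAGATATTTtatggacatgt
ISA3: ttcgtacaagaAGATATTTtccgggaaaat

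Starch enzymes were the second group, and the called negative ones had their lowest mean in *jazQ phyB*. Leaf starch is made in the chloroplast by day and broken down at night by a chain in which SEX1 and PWD phosphorylate the granule, amylases and debranching enzymes open it, and DPE and PHS enzymes handle the short chains. The list was added after the calls had been seen. Of 36 starch genes 18 were called (4 positive and 14 negative), 50% against 3.61% of all genes tested, with a median of -0.080 over all 36. Without 1 library 13 to 17 were called, the same 13 in each. All 14 negative genes had the lowest mean in *jazQ phyB*, and in 10 of them *jazQ phyB* alone was apart. Here too the genes were chosen by the sign of the interaction, which favours this order. Of the 14 negative genes, 7 had an evening element in the promoter window.

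*SEX1* measured 359, 373 and 345 CPM in WT, 363, 381 and 316 in *jazQ* and 374, 383 and 382 in *phyB*, while *jazQ phyB* gave 176, 208 and 177. *jazQ* overlapped WT as well as *phyB*, every *jazQ phyB* library lay below all others, and the interaction was -1.0 ± 0.11 (SE, adjusted p = 1.3e-04). *AMY3*, a chloroplast alpha-amylase, measured 160.3, 153 and 149 CPM in WT, 152, 172 and 136 in *jazQ* and 160.03, 161 and 157 in *phyB*, while *jazQ phyB* gave 69.4, 85.3 and 69.1. Its interaction was -1.09 ± 0.13 (SE, adjusted p = 1.8e-04). In *SEX1* and *AMY3* neither single mutant was called against WT. *PWD* measured 249, 243 and 221 CPM in WT, 230.1, 224 and 214 in *jazQ* and 278, 292 and 281 in *phyB*, while *jazQ phyB* gave 130.1, 143 and 142. Its interaction was -0.94 ± 0.087 (SE, adjusted p = 2.7e-05), and there *phyB* was called above WT (0.25) and *jazQ phyB* below *jazQ* (-0.69).

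The debranching enzyme *ISA3* measured 50.9, 47.9 and 50.2 CPM in WT, 49.4, 49 and 45.6 in *jazQ* and 70.8, 73.6 and 73.6 in *phyB*, while *jazQ phyB* gave 30.4, 36.4 and 32.3. Here *phyB* was also called above WT, so that the direction of the phyB effect turned between backgrounds, and the interaction was -1.09 ± 0.10 (SE, adjusted p = 2.0e-05). *PHS2*, a cytosolic glucan phosphorylase, measured 171, 169 and 159 CPM in WT, 151, 160.4 and 133 in *jazQ* and 239, 231 and 222 in *phyB*, while *jazQ phyB* gave 88.1, 98.7 and 86.4. Its interaction was -1.18 ± 0.10 (SE, adjusted p = 2.0e-05). *DPE1*, the chloroplast disproportionating enzyme, measured 36.2, 35.9 and 33.8 CPM in WT, 38.7, 38 and 33 in *jazQ* and 53.8, 55 and 52.9 in *phyB*, while *jazQ phyB* gave 20.3, 25.6 and 22.1. Its interaction was -1.3 ± 0.12 (SE, adjusted p = 2.5e-05). In all 3 of these genes *phyB* was highest, *jazQ phyB* lowest, and WT and *jazQ* overlapped. The chloroplast phosphorylase *PHS1* (AT3G29320, -0.98 ± 0.15 SE, adjusted p = 0.0011), the debranching enzyme *LDA* (-0.66 ± 0.085 SE, adjusted p = 4.6e-04), the branching enzyme *SBE2.1* (-0.77 ± 0.10 SE, adjusted p = 4.6e-04), the starch synthase *SS4* (-0.72 ± 0.083 SE, adjusted p = 2.0e-04) and the regulator *QQS* (-2.34 ± 0.35 SE, adjusted p = 0.0011) followed.

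*DPE2* (-0.60, not called in 7 of the 12 fits without 1 library, adjusted p of up to 0.014 without *phyB* replicate 1), the phosphatase *SEX4* (-0.66, not called in 10 of the 12 fits without 1 library, adjusted p of up to 0.027 without *jazQ phyB* replicate 1) and the phosphoglucomutase *PGM* (AT5G51820, -0.44, not called in 6 of the 12 fits without 1 library, adjusted p of up to 0.017 without *jazQ phyB* replicate 1) completed the negative group. *GBSS1*, the granule-bound synthase that makes amylose and is known as a target of the morning clock factors, went the other way. It measured 86.6, 127 and 113 CPM in WT, 109.6, 120.2 and 85.1 in *jazQ* and 45.5, 45 and 38.8 in *phyB*, while *jazQ phyB* gave 154, 147 and 128, with *phyB* lowest and *jazQ phyB* highest. This gave 1.78 ± 0.20 (SE, adjusted p = 1.4e-04). The amylase *AMY1* was low everywhere, at 1.79, 0.837, 0.512 and 1.63 CPM in WT, *jazQ*, *phyB* and *jazQ phyB*, and gave 2.78 ± 0.45 (SE, adjusted p = 0.0020). The beta-amylases *BMY3* (1.02, not called in 8 of the 12 fits without 1 library, adjusted p of up to 0.030 without *jazQ phyB* replicate 1) and *BAM1* (AT3G23920, 0.55, not called in 9 of the 12 fits without 1 library, adjusted p of up to 0.025 without *phyB* replicate 2) were also positive. Genes that supply ADP-glucose for starch synthesis were not called, with *APL1* at 0.040, *ADG1* at 0.16 and *APL3* at 0.56 (adjusted p = 0.81, 0.27 and 0.056).

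**Figure D4:**
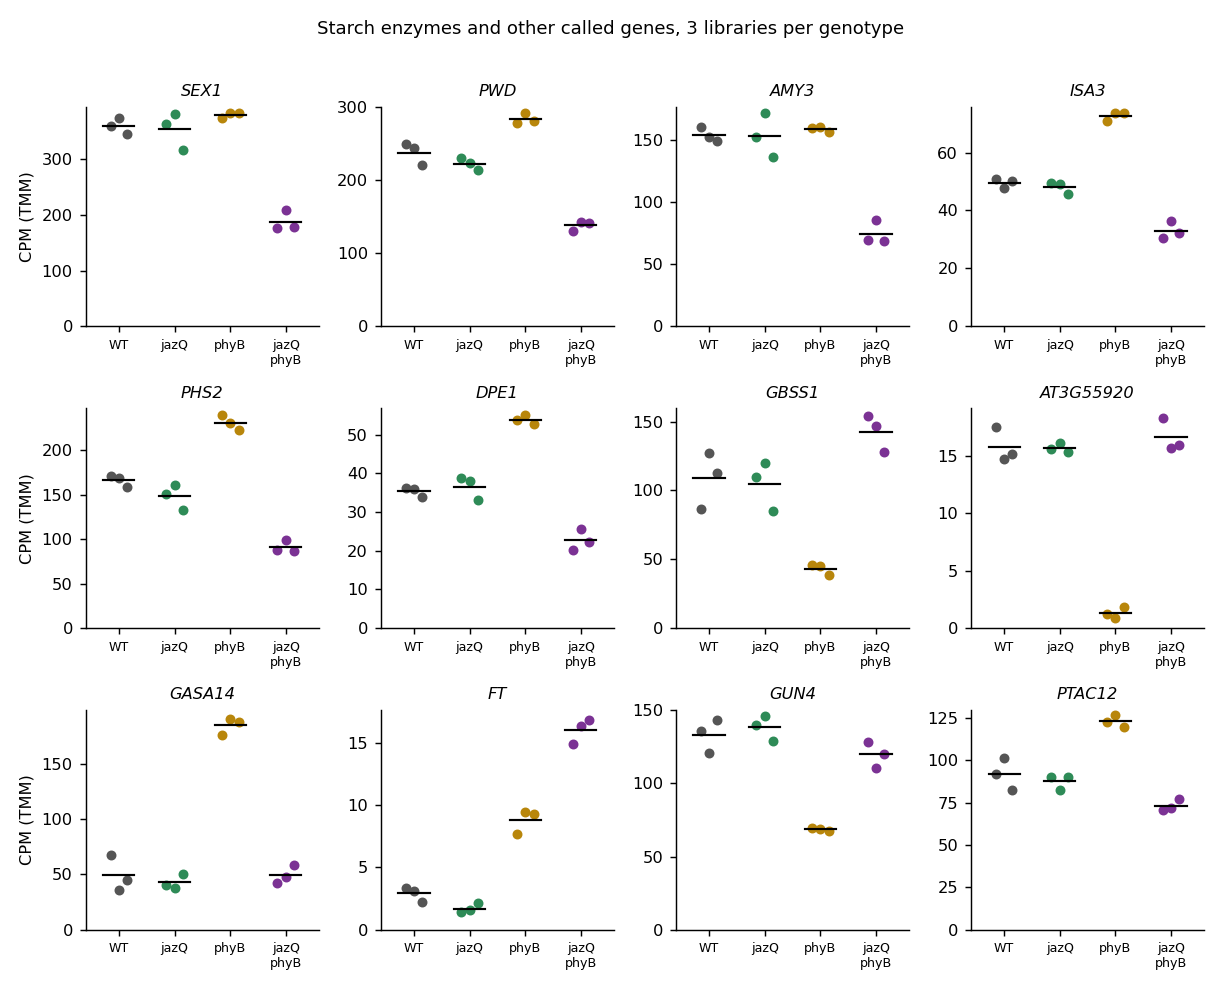
TMM-scaled CPM (vertical axes, from 0) of 7 starch genes and 5 other called genes in the 3 libraries (points) and their mean (line) of each genotype. *SEX1*, *PWD* and *AMY3* are lowest in *jazQ phyB*, *GBSS1*, AT3G55920 and *GUN4* lowest in *phyB*, and *GASA14* highest in *phyB*.

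Some genes of energy shortage were called in the same direction as the starch enzymes. Of 27 genes that mark darkness or sugar shortage, 4 were negative and 1 (*AMY1*) positive, 18.5% called against 3.61% of all genes tested. Their median was -0.40, and 22 of the 27 lay below 0. *DYL1*, a dormancy-associated gene that sugar represses, measured 144, 126 and 169 CPM in WT, 186, 175 and 153 in *jazQ* and 179, 205 and 209.9 in *phyB*, while *jazQ phyB* gave 97.7, 118 and 111. The *jazQ phyB* libraries were the lowest of all, and the interaction was -1.1 ± 0.15 (SE, adjusted p = 6.8e-04). Its relative AT2G33830 gave -1.99 ± 0.13 (SE, adjusted p = 2.4e-06), from 203, 252, 356 and 111 CPM in WT, *jazQ*, *phyB* and *jazQ phyB*. The raffinose synthase gene *DIN10* (-0.86, not called in 2 of the 12 fits without 1 library, adjusted p of up to 0.012 without *jazQ phyB* replicate 1) and the sugar transporters *STP13* (-0.54, not called in 8 of the 12 fits without 1 library, adjusted p of up to 0.021 without *phyB* replicate 2) and *SWEET12* (-0.50, not called in 10 of the 12 fits without 1 library, adjusted p of up to 0.022 without *phyB* replicate 1) were called as well. The count for this list was between 2 and 8 without 1 library, 3 or fewer without WT replicate 2, *jazQ* replicate 2, *phyB* replicate 1, *phyB* replicate 2 or the first *jazQ phyB* library, and 8 without WT replicate 3. The beta-galactosidase gene *BGAL10* (-1.57 ± 0.12 SE, adjusted p = 8.5e-06) and the myo-inositol oxygenase *MIOX2* (-1.4) were negative, whereas the myo-inositol synthases *MIPS1* (1.01 ± 0.16 SE, adjusted p = 0.0015) and *MIPS2* (1.2 ± 0.18 SE, adjusted p = 0.0013) were positive.

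Called nuclear genes for the chloroplast transcription machinery were mostly negative, whereas the called transcripts that the chloroplast itself encodes were positive. The PTAC proteins form part of the plastid-encoded RNA polymerase complex, which reads photosynthesis genes of the chloroplast genome. Of 18 PTAC genes, a list added after the calls had been seen, 10 were negative and 1 positive, with a median of -0.47. This is 61.1% called, against 3.61% of all genes tested. *PTAC12*, also known as HEMERA and needed for phytochrome signalling, measured 92, 101 and 82.2 CPM in WT, 89.97, 82.5 and 90.03 in *jazQ* and 123, 127 and 119 in *phyB*, while *jazQ phyB* gave 70.9, 71.7 and 77. The *phyB* libraries were the highest and the *jazQ phyB* libraries the lowest, with -0.68 ± 0.10 (SE, adjusted p = 0.0011). *PTAC17* (-0.80 ± 0.12 SE, adjusted p = 9.6e-04), *PTAC6* (-0.71 ± 0.11 SE, adjusted p = 0.0013), *PTAC3* (-0.49 ± 0.077 SE, adjusted p = 0.0015) and *PDE312*, another member (-0.74 ± 0.11 SE, adjusted p = 9.5e-04), had the same order of means. The other called members were *PTAC18*, *PTAC15*, *PTAC9*, *PTAC14* and *PTAC13* (-0.76 to -0.46), each of them not called in 10 or 11 of the 12 fits without 1 library. In those fits the list had 5 to 9 calls, 7 or fewer without WT replicate 2 (6), WT replicate 3 (6), *jazQ* replicate 1 (5), *jazQ* replicate 3 (5), any of the *phyB* replicates (5, 5 and 6) or *jazQ phyB* replicates 1 and 2 (5 and 5). The positive member was *PSI-P* (0.51, not called in 8 of the 12 fits without 1 library, adjusted p of up to 0.025 without *phyB* replicate 2), which is also a thylakoid protein.

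Some further genes for chloroplast proteins, in no list of the transcription machinery and chosen after their values were seen, were also called negative. They include *FLN2* (-0.71 ± 0.11 SE, adjusted p = 0.0016), a kinase-like partner of the polymerase, *MRL7* (-0.95 ± 0.15 SE, adjusted p = 0.0015), *RHON1* (-0.55 ± 0.093 SE, adjusted p = 0.0024), an RNA-binding protein, and the RNA-binding protein *CP29* (-0.94 ± 0.15 SE, adjusted p = 0.0016). *FLN1* (-0.70, not called in 7 of the 12 fits without 1 library, adjusted p of up to 0.013 without *jazQ phyB* replicate 1), *SCA3*, the nuclear-encoded plastid polymerase (-0.53, not called in 9 of the 12 fits without 1 library, adjusted p of up to 0.020 without *jazQ phyB* replicate 1), and the sigma factor *SIG6* (-0.44, not called in 7 of the 12 fits without 1 library, adjusted p of up to 0.020 without *jazQ phyB* replicate 1) were called less firmly. The sigma factor *SIG5*, which the clock and blue light control, was positive like the morning genes, at 67.5, 56.6, 46.5 and 66.9 CPM and 0.78 ± 0.12 (SE, adjusted p = 0.0011).

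Of 82 tested chloroplast-encoded transcripts 14 were called (17.1% against 3.61% of all genes tested), all positive, and the median over the 82 was 0.83. The list includes the ribosomal RNA rows of the chloroplast, with called rows such as those of *RRN23S* among them. Such rows count again in the ribosomal RNA list below, so the calls of both lists overlap. *RBCL*, the large subunit of Rubisco, measured 117, 109 and 163 CPM in WT, 66.6, 78.3 and 77.2 in *jazQ* and 41.5, 37.5 and 49.5 in *phyB*, while *jazQ phyB* gave 73.4, 80.3 and 71.7. WT was highest, *phyB* lowest and *jazQ* and *jazQ phyB* overlapped between them, and the interaction was 1.62 ± 0.19 (SE, adjusted p = 2.3e-04). *PSBD*, a photosystem II core protein, measured 10.8, 10.5 and 12.6 CPM in WT, 6.02, 6.97 and 6.85 in *jazQ* and 5.92, 5.71 and 6.62 in *phyB*, while *jazQ phyB* gave 7.56, 8.46 and 7.86, with *jazQ* and *phyB* overlapping below both others. This gave 1.16 ± 0.16 (SE, adjusted p = 8.0e-04). These 2 transcripts were the only ones called in every fit without 1 library. The list had 15 calls without WT replicate 1, and no more than 9 without *jazQ* replicate 1 (4), *phyB* replicate 1 (2), *phyB* replicate 2 (2) or any of the *jazQ phyB* replicates (2, 9 and 8). Without WT replicate 3, the library with the highest chloroplast share, 12 were called. Ribosomal RNA genes, a list added after the calls had been seen, gave 11 positive calls of 15 (73.3%) with a median of 1.44. Only the mitochondrial *RRN18* (1.15 ± 0.14 SE, adjusted p = 3.1e-04) was called in every fit without 1 library. The count for these genes was 7 or fewer without WT replicate 2 (7), *jazQ* replicate 1 (1), *jazQ* replicate 3 (5), any of the *phyB* replicates (3, 1 and 7) or any of the *jazQ phyB* replicates (1, 7 and 6). Ribosomal RNA share was 1.28 to 2.12% of counts in WT and 0.688 to 1.08% in the other genotypes. It is the sum of the counts of these same rows, so it moves with them by construction and is not a separate measure. In these libraries, sequenced as mRNA, the chloroplast-encoded share was also higher in WT (0.553 to 0.988%) than in the other genotypes (0.273 to 0.427%). How far carry-over of such RNA differed between libraries was not tested, which limits *RBCL*, *PSBD* and the other chloroplast-encoded values. Several of these rows are copies with identical values, so that both rows of *RRN16S*, of *RRN23S* and of *RRN4.5S*, ATCG00970 with ATCG01160, and AT2G01020 with AT3G41979 each stand for 1 source of reads.

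Nuclear photosynthesis genes had smaller departures, nearly all positive where called. Photorespiration, a list added after the calls had been seen, had 7 of 16 genes called, 43.8% against 3.61% of all genes tested. All 7 were positive, with a median of 0.40 over the list and all 16 above 0. *PGLP1*, the first enzyme of the pathway, measured 268, 362 and 284 CPM in WT, 288, 254 and 245 in *jazQ* and 162, 173 and 164 in *phyB*, while *jazQ phyB* gave 256, 250.4 and 265, and *GLDP1*, a subunit of glycine decarboxylase, 1325, 1345 and 1403 CPM in WT, 1314, 1195 and 1224 in *jazQ* and 943, 910.04 and 847 in *phyB*, while *jazQ phyB* gave 1308, 1258 and 1177. In both genes the *phyB* libraries lay below every other library, and the interactions were 0.84 ± 0.14 (SE, adjusted p = 0.0018) and 0.60 ± 0.093 (SE, adjusted p = 0.0014). The others were the catalase *CAT2* (0.72), hydroxypyruvate reductase *HPR* (0.52), the glycine cleavage T-protein gene AT1G11860 (0.48), the plastid membrane protein gene *LrgB* (0.56) and the glycolate oxidase *GOX1* (0.40), with an adjusted p of up to 0.012, 0.011, 0.011, 0.011 and 0.034 without *phyB* replicate 2 and 1, 1, 1, 2 and 11 fits without a call. The list had 2 calls without *phyB* replicate 2 and 5 to 7 without any other library.

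Of 33 genes for photosystems and electron transport 5 were positive (15.2% called against 3.61% of all genes tested), with a median of 0.37 and 30 above 0. *PSBS*, the sensor of excess light in photosystem II, measured 1139, 1154 and 1156 CPM in WT, 1101, 1034 and 1079 in *jazQ* and 545, 532 and 535 in *phyB*, while *jazQ phyB* gave 867, 873 and 820.1, with *phyB* lowest, *jazQ phyB* next and WT and *jazQ* above both. Its interaction was 0.77 ± 0.076 (SE, adjusted p = 5.0e-05). *PGR5* (0.79 ± 0.10 SE, adjusted p = 3.4e-04) and *PGRL1A* (0.51 ± 0.084 SE, adjusted p = 0.0022), which carry cyclic electron flow around photosystem I, plastocyanin *PETE1* (0.48, not called in 2 of the 12 fits without 1 library, adjusted p of up to 0.013 without *phyB* replicate 2) and *PSI-P* were the others. The count was between 3 and 8 without 1 library, 3 without *phyB* replicate 2 or the first *jazQ phyB* library and 8 without WT replicate 1. The violaxanthin de-epoxidase *NPQ1*, which works together with PSBS, was negative, at 96.1, 102, 96.2 and 48.7 CPM and -1.07 ± 0.11 (SE, adjusted p = 6.2e-05), with *jazQ phyB* alone low. Of 20 Calvin cycle genes 4 were positive (20% called, median 0.34). They were the carbonic anhydrase *CA1* (0.69 ± 0.11 SE, adjusted p = 0.0014), and the Rubisco activase *RCA* (0.48), *GAPA-2* (0.44) and the Rubisco small subunit *RBCS2B* (0.62), which lost their call in 10, 11 and 10 of the fits without 1 library. That left 1 call without WT replicate 2 or 3, *jazQ* replicate 2 or 3, any *phyB* replicate or *jazQ phyB* replicate 1 or 2, and 2 without WT replicate 1. *RbcX1*, a Rubisco assembly chaperone, was negative, from 37.8, 37.2, 38 and 11.2 CPM, at -1.73 ± 0.16 (SE, adjusted p = 2.3e-05). Light harvesting genes gave 2 positive calls of 21 (9.52%), *PSBS* and *LHCB4.3* (0.75 ± 0.12 SE, adjusted p = 0.0015), with a median of 0.38. Of these genes 4 were called without WT replicate 1, *jazQ* replicate 2 or *jazQ phyB* replicate 3.

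The chlorophyll and tetrapyrrole list, which also holds the sigma factors *SIG5* and *SIG6* described above, had calls in both directions. *GUN4*, which activates magnesium chelatase, measured 136, 121 and 143 CPM in WT, 139.99, 146 and 129 in *jazQ* and 69.7, 69 and 67.4 in *phyB*, while *jazQ phyB* gave 129, 111 and 120.2. The *phyB* libraries lay below all others, and the interaction was 0.75 ± 0.11 (SE, adjusted p = 8.1e-04). The chelatase subunit *CHLH* (0.83, not called in 5 of the 12 fits without 1 library, adjusted p of up to 0.014 without *jazQ phyB* replicate 1) and *CRD1* (0.51, not called in 1 of the 12 fits without 1 library, adjusted p of up to 0.011 without *phyB* replicate 2), the cyclase of the next steps, were positive too, and *PORB*, the light-dependent reductase, was negative (-0.55, not called in 9 of the 12 fits without 1 library, adjusted p of up to 0.019 without *jazQ phyB* replicate 1). In all, 5 of 30 genes on the list were positive, *SIG5* among them, and 2 negative, *PORB* and *SIG6*. This is 23.3% called, against 3.61% of all genes tested, with a median of 0.083. The list had 2 to 7 calls without 1 library, 4 or fewer without WT replicate 2 (3), *jazQ* replicate 1 (4), any of the *phyB* replicates (3, 2 and 4) or *jazQ phyB* replicate 1 (3).

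Other called genes, on no list, had various functions, and some were chosen after their values were seen. The ABC1-type kinase *ATH13* measured 541, 509, 281 and 571 CPM and gave 1.11 ± 0.094 (SE, adjusted p = 1.6e-05), the internal NADH dehydrogenase *NDA1* 102, 95, 35.1 and 89.5 CPM and 1.46 ± 0.15 (SE, adjusted p = 6.5e-05), and the ferric reductase *FRO6* 187, 158, 81.1 and 172 CPM and 1.33 ± 0.14 (SE, adjusted p = 6.5e-05). In all of them *phyB* alone was low. *WCRKC1*, a chloroplast thioredoxin, measured 60.1, 62.2, 65.1 and 27.3 CPM and gave -1.31 ± 0.11 (SE, adjusted p = 1.8e-05), and *RIBA2*, an enzyme of riboflavin synthesis, 29.9, 30.9, 45.3 and 20.2 CPM and -1.22 ± 0.089 (SE, adjusted p = 7.6e-06). Both were lowest in *jazQ phyB*, as was AT1G56300, a DnaJ-type chaperone (-1.61 ± 0.12 SE, adjusted p = 8.5e-06).

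Several defense genes, some of them of the salicylate type, were lowest in *phyB*. Salicylate and jasmonate defend mostly against different attackers and restrain each other. *PR1*, the classical salicylate marker, measured 33.8, 11 and 10.8 CPM in WT, 4.57, 1.01 and 8.78 in *jazQ* and 0, 0.0742 and 0.16 in *phyB*, while *jazQ phyB* gave 12.7, 3.29 and 1.15. WT overlapped *jazQ phyB*, *phyB* was at or near the floor of 3 counts (0.160 to 0.222 CPM), and the fitted interaction of 8.0 ± 1.65 (SE, adjusted p = 0.0080) depends on the prior count where a group is at or near 0. It was not called in 9 of the 12 fits without 1 library (adjusted p of up to 0.032 without *jazQ phyB* replicate 1). *PCR1*, a membrane protein of cadmium resistance, measured 6.39, 3.99 and 6.64 CPM in WT, 1.16, 0.744 and 1.64 in *jazQ* and 0.0722, 0.371 and 0.0533 in *phyB*, while *jazQ phyB* gave 1.1, 3.0 and 0.665, with *phyB* lowest and WT highest. This gave 5.58 ± 0.84 (SE, adjusted p = 0.0012) with the same limit. *CRK37*, a cysteine-rich receptor kinase (1.33, 0.407, 0.181 and 1.23 CPM, 4.38 ± 0.59 SE, adjusted p = 6.4e-04), and *PNP-A*, a secreted natriuretic peptide (3.24, 1.38, 0.48 and 2.5 CPM, 3.68 ± 0.53 SE, adjusted p = 9.6e-04), had their lowest mean in *phyB* and the next lowest in *jazQ*. The *phyB* mean of *CRK37* was at the floor, so its fitted value has the same limit.

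*AIG1*, a GTP-binding protein that avirulent bacteria induce, measured 18.4, 8.97 and 10.6 CPM in WT, 8.22, 8.93 and 4.07 in *jazQ* and 2.6, 2.3 and 2.56 in *phyB*, while *jazQ phyB* gave 11.1, 9.4 and 4.9. Its *phyB* libraries lay below all others, and the interaction was 2.64 ± 0.49 (SE, adjusted p = 0.0046), not called in 5 of the 12 fits without 1 library (adjusted p of up to 0.017 without *phyB* replicate 2). AT3G28510 (7.98 ± 0.80 SE, adjusted p = 5.9e-05), a P-loop ATPase, and AT3G48640 (5.77 ± 0.47 SE, adjusted p = 1.2e-05), a protein of unknown function, had all 3 *phyB* libraries under the floor, and AT4G33720, a PR1-like protein, had *jazQ* at 0 counts in all 3 libraries. Its fitted value was 10.45 ± 2.02 (SE, adjusted p = 0.0075), not called in 9 of the 12 fits without 1 library (adjusted p of up to 0.033 without WT replicate 1). These fitted values are not bounds. AT1G33950 (6.63, not called in 7 of the 12 fits without 1 library, adjusted p of up to 0.021 without *phyB* replicate 3), *ANK* (3.18, not called in 6 of the 12 fits without 1 library, adjusted p of up to 0.018 without *phyB* replicate 3) and AT3G28580 (3.01, not called in 9 of the 12 fits without 1 library, adjusted p of up to 0.019 without *phyB* replicate 1) were others of the largest. *WRKY46*, a regulator of basal defense, was called at 2.26, not called in 8 of the 12 fits without 1 library (adjusted p of up to 0.031 without *jazQ phyB* replicate 1). Of 23 genes on the salicylate list 2 were called (8.70%), *PR1* and *AIG1*, with 0 calls without any *phyB* library or the first or second *jazQ phyB* library. Of 60 *WRKY* genes 2 were called, *WRKY46* and *WRKY3* (-0.57 ± 0.091 SE, adjusted p = 0.0016), which is 3.33% against 3.61% of all genes tested.

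*PR4*, a chitin-binding protein that responds to jasmonate with ethylene, measured 108, 75.5 and 101 CPM in WT, 78.9, 67 and 85.8 in *jazQ* and 63.6, 65.4 and 51.3 in *phyB*, while *jazQ phyB* gave 94, 116 and 131, with *phyB* lowest. This gave 1.22 ± 0.21 (SE, adjusted p = 0.0024). Basic chitinase *HCHIB* (1.18 ± 0.20 SE, adjusted p = 0.0023) and the camalexin-type cytochrome *CYP71A12* (2.3, 1.54, 1.29 and 4.31 CPM, 2.38 ± 0.38 SE, adjusted p = 0.0018) were positive and had their highest mean in *jazQ phyB*. Lists with no call were aliphatic glucosinolates (29 tested, median 0.54), myrosinases and ER bodies (27, median 0.037) and root triterpene clusters (7, median -0.29). For the aliphatic glucosinolate genes 26 of 29 values lay above 0, and the lowest adjusted p was 0.015 for *MYB28*, their main activator (0.56).

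Anthocyanin genes gave 3 positive calls of 22 tested (13.6% against 3.61% of all genes tested), with a median of 0.20. *MYB90*, a switch for the pathway also known as PAP2, measured 1.43, 1.61 and 0.705 CPM in WT, 0.347, 0.812 and 0.50 in *jazQ* and 0.938, 0.964 and 0.427 in *phyB*, while *jazQ phyB* gave 4.26, 3.11 and 2.66. The *jazQ phyB* libraries were the highest, the other genotypes overlapped, and the interaction was 3.35 ± 0.55 (SE, adjusted p = 0.0022). *LDOX*, an enzyme late in the pathway, measured 8.37, 14.9 and 9.29 CPM in WT, 17.7, 31 and 15.3 in *jazQ* and 1.8, 2.15 and 1.55 in *phyB*, while *jazQ phyB* gave 15.4, 17.5 and 12.9, with *phyB* below all others. This gave 2.07 ± 0.43 (SE, adjusted p = 0.0080), not called in 8 of the 12 fits without 1 library (adjusted p of up to 0.032 without *phyB* replicate 3). *UF3GT*, a glycosyltransferase of the same branch, gave 2.79, not called in 11 of the 12 fits without 1 library (adjusted p of up to 0.037 without *phyB* replicate 2). The list had 1 call without WT replicate 2, *jazQ* replicates 1 or 3, any *phyB* replicate or *jazQ phyB* replicates 1 or 2.

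Genes of the jasmonate pathway itself were called at 9.09% of signalling, 6.67% of synthesis and 25% of turnover genes, against 3.61% of all genes tested, which in each list is 1 or 2 genes. The called signalling genes, 2 of 22, were *MYC4* (35.3, 32.2, 26.8 and 35.7 CPM, 0.54), one of the factors that JAZ proteins repress, and *NINJA* (48.4, 55, 56.6 and 49.1 CPM, -0.38), the adaptor that links JAZ to a corepressor, and both lost the call in 10 and 11 of the fits without 1 library (adjusted p of up to 0.026 and 0.022 without *jazQ phyB* replicate 1). Of 15 synthesis genes 1 was called. This was *OPR3*, which reduces the precursor OPDA, at 16.8, 17.6 and 16.6 CPM in WT, 34.7, 37.6 and 34.8 in *jazQ* and 19.8, 21.6 and 19.8 in *phyB*, while *jazQ phyB* gave 30.4, 28.4 and 29.7. Both *jazQ* genotypes were above both others, less so with *phyB*, and the interaction was -0.54 ± 0.093 (SE, adjusted p = 0.0028), not called in 1 of the 12 fits without 1 library (adjusted p = 0.011 without *phyB* replicate 2).

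Jasmonate turnover gave 2 negative calls of 8. *ILL6*, which cleaves the active hormone conjugate, measured 7.79, 9.66 and 8.35 CPM in WT, 19.6, 20.5 and 18.8 in *jazQ* and 9.67, 8.38 and 10.03 in *phyB*, while *jazQ phyB* gave 12.7, 11.3 and 12.1. It was raised by *jazQ* (1.2 against WT) and less so in *jazQ phyB* (0.36 against *phyB*), and the interaction was -0.85 ± 0.14 (SE, adjusted p = 0.0024). *ST2A*, a sulfotransferase of jasmonate turnover that shade induces, measured 5.7, 3.83 and 4.06 CPM in WT, 9.38, 4.87 and 9.71 in *jazQ* and 37.1, 39.5 and 38.3 in *phyB*, while *jazQ phyB* gave 21.9, 25.3 and 20.3. *phyB* raised it in both backgrounds, and most without *jazQ*, with -1.55 ± 0.27 (SE, adjusted p = 0.0031), not called in 4 of the 12 fits without 1 library (adjusted p of up to 0.013 without *jazQ* replicate 1). Of 14 wound-type response genes *PR4* alone was called (7.14% against 3.61% of all genes tested), with a median of 0.68 for the 14.

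Shade and PIF target genes were mostly positive where called. *FT*, the mobile flowering signal, measured 3.37, 3.14 and 2.23 CPM in WT, 1.39, 1.56 and 2.14 in *jazQ* and 7.72, 9.42 and 9.34 in *phyB*, while *jazQ phyB* gave 14.9, 16.4 and 16.9. It was lowest in *jazQ*, higher in *phyB* and highest in *jazQ phyB*, with no overlap among these genotypes, and the interaction was 1.67 ± 0.25 (SE, adjusted p = 0.0011). *HFR1*, a brake on PIF proteins, measured 9.3, 8.97 and 6.7 CPM in WT, 5.15, 4.94 and 4.36 in *jazQ* and 51.5, 49.2 and 44.8 in *phyB*, while *jazQ phyB* gave 60.1, 61.9 and 54.4. Loss of phyB raised it in both backgrounds (2.53 and 3.6), and the interaction was 1.07 ± 0.16 (SE, adjusted p = 0.0013). *IAA29* (3.19, 1.99, 13.1 and 17.6 CPM, 1.13), an auxin repressor of the shade response, had the same order, not called in 11 of the 12 fits without 1 library (adjusted p of up to 0.028 without WT replicate 1).

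*BBX25*, a B-box protein that acts with HY5, had another pattern, with *phyB* alone low (49.3, 38.5, 21.1 and 39.7 CPM, 1.27 ± 0.14 SE, adjusted p = 1.1e-04). In all, 5 of 40 shade genes were positive and 1 (*ST2A*) negative, 15% called against 3.61% of all genes tested, with a median of 0.29. The count was 3 without *jazQ phyB* replicate 1 and 4 to 6 without any other library. Among 32 light regulators, the HY5 homologue *HYH* (0.77 ± 0.12 SE, adjusted p = 0.0014) and *SPA3* (0.65 ± 0.11 SE, adjusted p = 0.0021), a partner of the COP1 ligase, were positive, and *BBX22* (-0.95 ± 0.13 SE, adjusted p = 8.0e-04) negative. *SPA4* (0.65, not called in 6 of the 12 fits without 1 library, adjusted p of up to 0.017 without *phyB* replicate 2) and the far-red receptor *PHYA* (-0.47, not called in 6 of the 12 fits without 1 library, adjusted p of up to 0.017 without *jazQ phyB* replicate 1) were called less firmly. Of this list 15.6% was called, with a median of 0.023, and 3 genes were called without WT replicate 2, *jazQ* replicate 2, *phyB* replicate 2 or *jazQ phyB* replicate 1.

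Growth hormones and cell walls had single genes called rather than whole lists. *GASA6*, a gibberellin-regulated peptide of growing tissue, measured 171, 161 and 153 CPM in WT, 107, 109.5 and 106 in *jazQ* and 82.5, 90.8 and 93.5 in *phyB*, while *jazQ phyB* gave 119.5, 128 and 121. WT was highest and *phyB* lowest, with *jazQ phyB* above *jazQ* in every library, and the interaction was 1.05 ± 0.087 (SE, adjusted p = 1.3e-05). *GASA14*, of the same family, measured 67.6, 36.3 and 44.8 CPM in WT, 40.9, 38.2 and 49.98 in *jazQ* and 176, 191 and 187 in *phyB*, while *jazQ phyB* gave 42, 47.4 and 58.4. Only *phyB* was high there, and the other genotypes overlapped, with -1.68 ± 0.25 (SE, adjusted p = 0.0011). Its relative *GASA1* gave -0.91, not called in 5 of the 12 fits without 1 library (adjusted p of up to 0.014 without WT replicate 2).

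*EXPA8*, an expansin that loosens cell walls, measured 26.9, 29.9 and 28.8 CPM in WT, 18.4, 18 and 11.4 in *jazQ* and 31, 31.6 and 27.5 in *phyB*, while *jazQ phyB* gave 46.6, 53.4 and 35.6. The *jazQ phyB* libraries lay above all others and the *jazQ* libraries below all others, and the interaction was 1.42 ± 0.22 (SE, adjusted p = 0.0015). The *SAUR* gene AT4G38860 (1.22 ± 0.19 SE, adjusted p = 0.0017), from a family that auxin induces in growing cells, and *XTH31* (0.93 ± 0.12 SE, adjusted p = 3.6e-04), a wall enzyme, rose with loss of phyB in *jazQ* (0.70 and 0.59). In WT, *XTH31* fell (-0.34) and AT4G38860 was not called (-0.52). Of 61 *SAUR* genes 3 were positive (median 0.51), of 29 *XTH* genes 1 (median -0.049) and of 23 expansins 2 (median 0.20). These are 4.92%, 3.45% and 8.70%, and the shares of *SAUR* and *XTH* genes lie near the 3.61% of all genes tested. Without the first *jazQ phyB* library there was 1 call among *SAUR* genes and 1 among expansins, and 4 expansins were called without WT replicate 1 or 3. Tubulins, a list added after the calls had been seen, had 4 negative of 15 (26.7% called, median -0.30), with *TUB5* (-0.56 ± 0.084 SE, adjusted p = 0.0012) the firmest. They had 1 or 2 calls without WT replicate 2, any *jazQ* or *phyB* replicate or *jazQ phyB* replicates 1 and 3.

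No member was called on the lists for brassinosteroid (22 tested), ethylene (28), auxin homeostasis and transport (26), phenylpropanoids and lignin (22), pectin enzymes (17), Casparian strip and suberin (25) or the cytosolic ribosome (27). Their medians were 0.043, 0.29, 0.29, 0.15, -0.058, 0.10 and 0.024. The lowest adjusted p on each of the first 3 was 0.014 for *DWF1*, 0.034 for *EBF1* and 0.022 for *YUC9*, an auxin synthesis gene (1.61).

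Single genes of other functions were called in every fit without 1 library. *ABF3* (0.69 ± 0.093 SE, adjusted p = 6.3e-04), a transcription factor of abscisic acid, and *HAB1* (0.59 ± 0.10 SE, adjusted p = 0.0023), a phosphatase that restrains the same hormone, were positive. *F6'H1* (32.1, 34, 22.1 and 54.6 CPM, 1.21 ± 0.20 SE, adjusted p = 0.0023), which makes scopoletin under iron shortage, and *AGL24* (8.49, 7.5, 5.35 and 11.8 CPM, 1.29 ± 0.22 SE, adjusted p = 0.0025), a flowering regulator, were also positive and highest in *jazQ phyB*. The heat shock factor *HSFA8* was negative (-0.66 ± 0.11 SE, adjusted p = 0.0025).

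**Figure D5:**
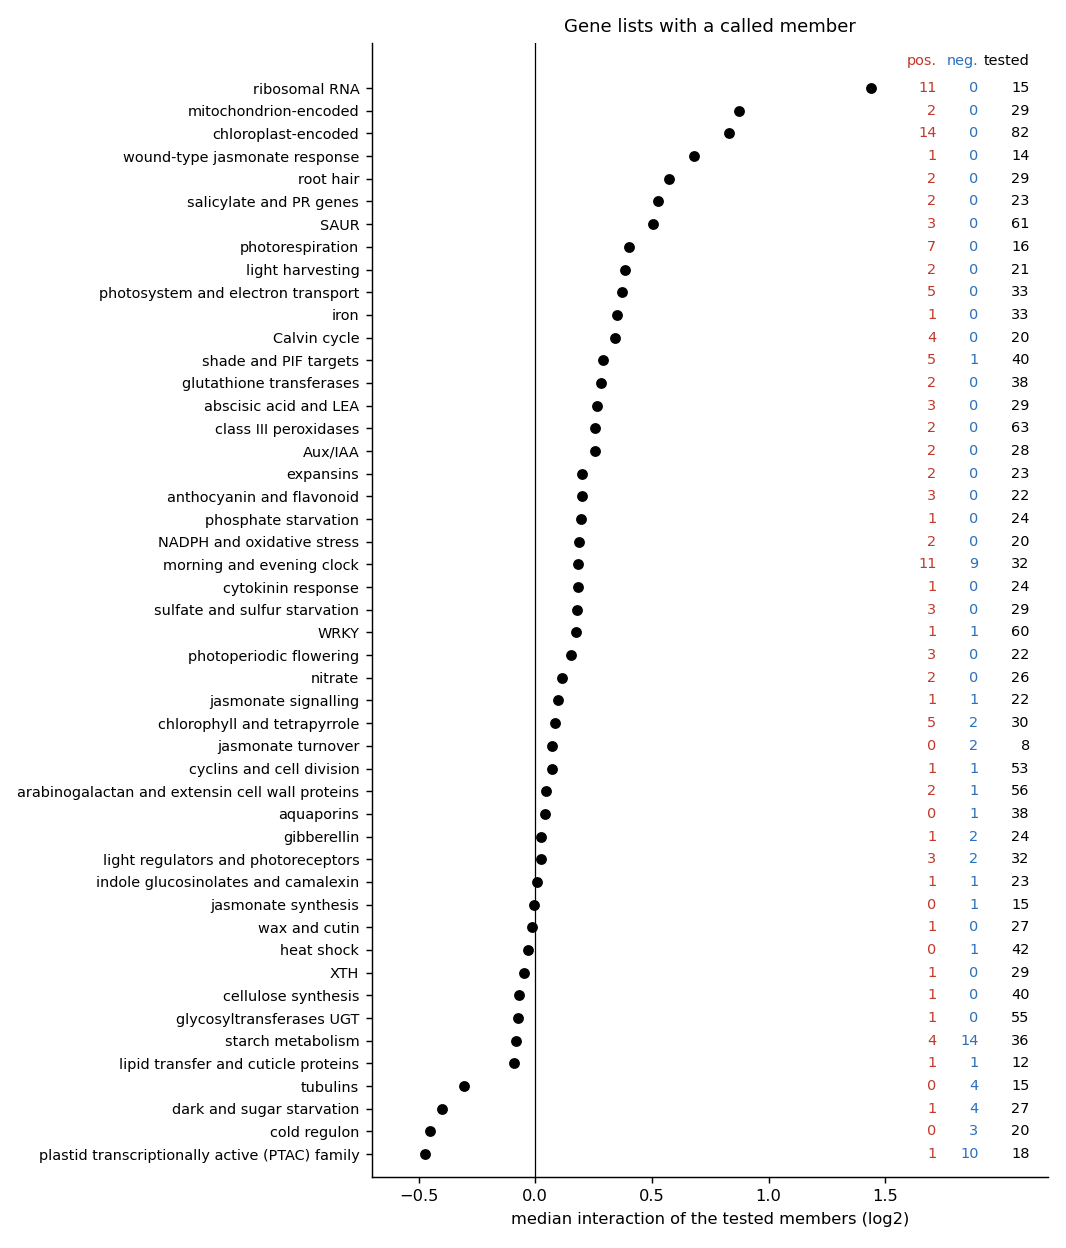
Median interaction (horizontal axis, log2) of the tested members of each gene list with at least 1 called member, with the numbers called positive, called negative and tested at the right. The PTAC family (-0.47), the cold regulon (-0.45) and the dark and sugar starvation list (-0.40) lie lowest, and ribosomal RNA (1.44) highest.

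In some called genes a single genotype stood far from the rest. AT3G55920, a cyclophilin-type isomerase, measured 17.5, 14.7 and 15.2 CPM in WT, 15.6, 16.1 and 15.3 in *jazQ* and 1.23, 0.89 and 1.81 in *phyB*, while *jazQ phyB* gave 18.2, 15.6 and 16. WT, *jazQ* and *jazQ phyB* overlapped, *phyB* was the only genotype with a low level, and the interaction was 3.63 ± 0.21 (SE, adjusted p = 5.0e-07). AT2G01008, of unknown function, measured 5.27, 4.22 and 3.82 CPM in WT, 1.97, 2.23 and 1.93 in *jazQ* and 37.1, 44.9 and 47.6 in *phyB*, while *jazQ phyB* gave 1.89, 0.823 and 1.39, highest in *phyB* with no overlap between genotypes, and gave -3.79 ± 0.32 (SE, adjusted p = 1.6e-05). A sequence difference carried by the *phyB* line and not by *jazQ phyB* cannot be told apart from an interaction in such genes.

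Transposon genes were called as well. *SADHU3-2* measured 0.93, 0.613 and 0.764 CPM in WT, 3.24, 2.77 and 2.78 in *jazQ* and 11.8, 10.5 and 13.8 in *phyB*, while *jazQ phyB* gave 3.82, 3.11 and 4.41. The *phyB* libraries were the highest, and *jazQ* and *jazQ phyB* overlapped above WT, with -3.54 ± 0.27 (SE, adjusted p = 8.5e-06). AT5G35935 measured 5.0, 6.59 and 3.88 CPM in WT, 26.1, 25.8 and 28.8 in *jazQ* and 25.3, 24.7 and 22.4 in *phyB*, while *jazQ phyB* gave 15.5, 15.9 and 17.1. WT was lowest and *jazQ* highest, with no overlap, and the interaction was -2.98 ± 0.17 (SE, adjusted p = 5.0e-07). Apart from the transposon genes, AT3G28290 and AT3G28300 had identical values in every library (3.48, 7.4, 16.2 and 8.82 CPM, -1.99 ± 0.30 SE, adjusted p = 0.0011), so that they share their reads and count as 1 source.

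*BGLU19*, a beta-glucosidase, measured 1.09, 0.613 and 1.23 CPM in WT, 0.926, 1.22 and 0.714 in *jazQ* and 8.66, 4.89 and 3.09 in *phyB*, while *jazQ phyB* gave 0.0879, 0.411 and 0.363, and *DOG1*, the regulator of seed dormancy, 1.86, 2.22 and 2.06 CPM in WT, 2.66, 3.11 and 1.93 in *jazQ* and 3.46, 2.52 and 4.05 in *phyB*, while *jazQ phyB* gave 1.05, 1.06 and 0.967. Both had their highest mean in *phyB* and lowest in *jazQ phyB*, and gave -4.23 ± 0.72 (SE, adjusted p = 0.0026) and -2.06 ± 0.32 (SE, adjusted p = 0.0016). The sum of 7 seed storage markers moved with them, at 7.79 to 65.3 CPM in *phyB* against 0.349 to 1.69 in WT, 0.428 to 1.15 in *jazQ* and 0.132 to 0.353 in *jazQ phyB*, and its part in these values was not tested. AT5G60250, a RING finger gene (0.47, 0.901, 3.88 and 0.816 CPM, -3.1 ± 0.52 SE, adjusted p = 0.0025), and *MLO9* (0.693, 2.78, 1.9 and 1.5 CPM, -2.29 ± 0.38 SE, adjusted p = 0.0024) also had large negative values, as did AT5G64490 (-2.05, not called in 11 of the 12 fits without 1 library, adjusted p of up to 0.036 without *jazQ phyB* replicate 1).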

How the data were processed

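Expected counts per gene, and TPM, were deposited by the authors, who aligned single-end reads of 50 bases to TAIR10 and quantified them with RSEM (1.2.11). All deposited expected counts (100%) were whole, and they were rounded before use. Low counts were filtered with filterByExpr (minimum 10), libraries were scaled by TMM, and the interaction and 5 pairwise contrasts were tested in 1 edgeR (4.0.16, R 4.3.3) quasi-likelihood fit over all 12 libraries, with Benjamini-Hochberg adjustment over all genes tested and a threshold of 0.01. SE is the size of the log2 value divided by the square root of F. CPM are TMM-scaled. DESeq2 (1.42.0) and limma (3.58.1) on log2(TPM + 1) or log2(TPM + 0.1) were alternatives, beside another scaling, other filters and thresholds, a replicate block and leaving out each library. The code was tested on simulated data. Depth was 12750074 to 26347184 counts per library, and floors of 3 counts cover counting error only.

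Named genes were the mutated genes, the 14 largest values and 5 lowest adjusted p in each direction (highest genotype mean of at least 1 CPM), up to 6 called members of each list and, for lists with no call, 2 members by adjusted p. Others were chosen after their values were seen. The members and lists were chosen with earlier results of these data known, and the starch, ribosomal RNA, PTAC, tubulin and photorespiration lists after the calls were seen. RefSeq (TAIR10.1) gave names for 32835 of 33602 genes.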

Additional observations from a re-analysis of the deposited data

Results flagged for a closer look

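Every called gene is one in which the effect of *phyB* differed between the WT and the *jazQ* background by the interaction test itself (edgeR quasi-likelihood, adjusted over all genes), 399 with a positive and 357 with a negative difference. Among the named genes, some had a called effect of *phyB*, or of *jazQ*, in both backgrounds with opposite directions. Loss of phyB lowered the transcript in WT and raised it in *jazQ* for *LHY* (interaction 1.97), *COL2* (1.95), AT3G28510 (7.98), *XTH31* (0.93) and the mitochondrial *RRN18* (1.15). The *jazQ* mutations lowered the transcript against WT and raised it against *phyB* for *PCR1* (5.58), *GASA6* (1.05) and *RBCL* (1.62), and raised then lowered it for the transposon gene *SADHU3-2* (-3.54).

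Loss of phyB raised the transcript in WT and lowered it in *jazQ* for the clock-associated genes *COR27* (-2.51), *JMJD5* (-1.91), *GRP7* (-1.36) and *TOC1* (-1.0), and for the starch genes *DPE1* (-1.30), *PHS2* (-1.18), *ISA3* (-1.09) and *PWD* (-0.94). The same held for AT2G33830 (-1.99), *DYL1* (-1.10), AT1G56300 (-1.61), *BGAL10* (-1.57), *RIBA2* (-1.22) and *PTAC17* (-0.80), and for the transposon gene AT5G35935 (-2.98). The values of AT3G28510 and *PCR1* rest on *phyB* libraries at or near a count of 0.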

How the results depend on the processing

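The direction of every called gene was kept wherever it was called again, and 0 of 156 called named genes reversed under any alternative. DESeq2 called 1111 genes (629 positive and 482 negative), limma on log2(TPM + 1) 630 (259 and 371) and on log2(TPM + 0.1) 614 (256 and 358), and the cause of the turned split was not tested. An adjusted p of 0.05 gave 1980 genes (1044 and 936), and a log2 size of at least 1 gave 233 (141 and 92). Without 1 library the count was 359 to 755, with 172 to 389 positive and 178 to 366 negative, and 16 to 74 of the 156 named calls were lost, against 1 with DESeq2 and 30 and 26 with TPM. Upper-quartile scaling gave 766, no filter 849 and at least 10 counts in every library 768. A replicate block gave 697 calls (367 and 330), of which 620 were shared with the fit without it. The numbers were not used to pair the samples, since 3 of 18 correlations of same-numbered deviations exceeded 0.1 (range -0.17 to 0.26), where all were required to. As 6 of 12 libraries correlated best with their own number, this check does not show that the samples were unpaired. Genes under the floor of 3 counts in a genotype are limited by depth.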
